A study of Mus musculus with 8 samples.

Results

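The genes described here are 37 transcripts of the cell's protein-folding machinery, chosen by symbol from the 37315 gene identifiers counted in each library. Of these, 23 belong to the endoplasmic reticulum (ER) and its unfolded protein response, from the chaperone gene Hspa5 to the degradation factor gene Sel1l, and 14 encode the cytosolic and mitochondrial heat shock chaperones and their regulators. All 37 had a row in the files. The expression filter left 14788 genes, among them 22 of the ER members and all 14 chaperone members. Trib3, a pseudokinase gene induced late in the unfolded protein response, was the exception, with 15 raw counts over the 8 libraries and 1 to 4 in each.

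The RNA came from CA1, a field of the mouse hippocampus, of 8 animals carrying Cas9 that had received an adeno-associated virus by stereotaxic injection. The virus delivered a guide RNA against SIK3, a salt-inducible kinase, in the group called KO, or a control guide in the group called control. Each group held 4 mice (controls 1 and 3 and KO 1 and 2 were male, controls 2 and 4 and KO 3 and 4 female), and 1 library was made per mouse. All animals therefore carried Cas9, the surgery and a virus. Details not given in the sources used here include the promoter that drives Cas9, the mouse line, the age of the animals and the time after injection. The dissected tissue mixes cell types and cells with and without the virus, so fewer cells of a type and less RNA per cell cannot be told apart.

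Libraries held 13561662 to 18619928 counts, the males fewer than the females. Sik3, the targeted gene, averaged 147 ± 12.8 CPM (counts scaled to library size; SD, n = 4) under the control guide, 86.2 ± 9.73 CPM under the SIK3 guide (SD, n = 4), and fell by 0.77 on the log2 scale (edgeR, adjusted p = 0.0202). Defining markers of CA1 pyramidal neurons were present in every library, with a summed level of 865 to 933 CPM over 8 genes in controls and 886 to 940 CPM in KO mice. Dentate granule markers were also present, at 714 to 847 CPM over 7 genes in controls and 645 to 787 CPM in KO mice. So were CA3 pyramidal markers, at 916 to 993 CPM over 6 genes in controls and 838 to 995 CPM in KO mice. A single gene led the CA3 sum, Nptx1 at a mean of 670 CPM over the 8 libraries, and Dkk3 at 386 CPM led the CA1 sum. Sums over different genes do not give the share of each cell type. Oligodendrocyte markers varied most between mice, from 3086 to 5133 CPM in controls and from 2802 to 4438 CPM in KO mice over 8 genes.

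Protein folding in the ER is watched by sensors in its membrane. IRE1 (encoded by Ern1) splices the mRNA of Xbp1, PERK (Eif2ak3) phosphorylates the initiation factor eIF2 alpha and so favours translation of Atf4, and ATF6 is released by proteolysis in the Golgi. The resulting factors raise transcription of ER chaperones, of disulfide isomerases and of the degradation machinery. In the cytosol, heat shock factor HSF1 (Hsf1) does the corresponding work for the Hsp70, Hsp90 and small heat shock proteins. Neurons are known to keep constitutive chaperones such as Hspa8 and the Hsp90 genes at high levels and the inducible Hsp70 genes low when unstressed. Gene counts do not distinguish spliced from unspliced Xbp1.

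Promoter sequences are shown first because ER stress elements and heat shock elements fell in different members, where they were found at all, and because members that moved together between mice are compared by them further on. RefSeq promoters on GRCm38.p6, the build of the files (mm10), run from 250 bases before to 50 bases after the start site, and 30 of the 37 members matched an entry. The ER stress element (ERSE, CCAAT and CCACG with 9 bases between) was searched on both strands, as were the others, and was found in 7 of the 20 ER members matched and in 0 of the 10 chaperone members, against 0.119% of all 32851 promoters of that length. The shorter ERSE-II (ATTGG and CCACG with 1 base between) was in 2 of the 20 and 0 of the 10, against 0.0365%. The heat shock element (HSE, the units GAA and TTC alternating 3 in a row with 2 bases between them) was in 0 of the 20 ER members and in 4 of the 10 chaperone members, against 0.603% of all promoters. The ATF4 site (CARE, TGATGNAA) was in 2 of the 20 and 0 of the 10, against 3.97%, and the UPRE core TGACGTGG in none of the 30, against 0.676%. ERSE, ERSE-II and the UPRE core share the letters CCACG, read on 1 strand or the other, and both ERSE forms hold a CCAAT box, which 37.4% of all promoters, 17 of the 20 and 6 of the 10 had, so matches can overlap. HSE matches overlap where more than 3 units follow in a row. A match is a description of letters, and no match says only that they are not in this window.

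The ERSE copies are shown along their own strand, with the fixed letters of the motif in capitals and the spacer in lower case. Hsp90b1, which encodes the ER form of Hsp90 called GRP94, held a pair of them on opposite strands.
Hspa5: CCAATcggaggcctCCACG
Hsp90b1, farther from the start: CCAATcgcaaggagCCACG
Hsp90b1, nearer to the start: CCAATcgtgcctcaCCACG
Calr: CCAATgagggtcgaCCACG
Canx: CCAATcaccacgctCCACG
Dnajc3: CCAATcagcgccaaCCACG
Pdia6: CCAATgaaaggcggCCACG
Creld2: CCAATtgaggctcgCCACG

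The promoter of Hspa5, the gene of the ER Hsp70 chaperone BiP, is given from 250 bases before to 30 bases after its start (chr2:34771840-34772119, GRCm38.p6, plus strand), with the exact ERSE in capitals, its first base 65 bases before the start.
Hspa5: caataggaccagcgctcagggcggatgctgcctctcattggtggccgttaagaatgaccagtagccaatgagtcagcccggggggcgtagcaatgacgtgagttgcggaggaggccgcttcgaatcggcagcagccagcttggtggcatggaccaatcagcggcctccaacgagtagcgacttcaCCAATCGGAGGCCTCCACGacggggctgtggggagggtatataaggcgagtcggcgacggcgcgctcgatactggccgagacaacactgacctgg

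Herpud1, which encodes an ER membrane protein that serves in ER-associated degradation, carried an ERSE-II beginning 52 bases before its start and an ATF4 site 112 bases before it, read here on the opposite strand. It is shown from 150 bases before to 30 bases after the start (chr8:94386279-94386458, plus strand), with both motifs in capitals.
Herpud1: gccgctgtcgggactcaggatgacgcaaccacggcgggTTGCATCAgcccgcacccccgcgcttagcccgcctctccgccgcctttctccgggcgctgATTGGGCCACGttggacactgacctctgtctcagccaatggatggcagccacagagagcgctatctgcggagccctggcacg

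For the heat shock side, Chordc1 and Hspe1 are shown over the same span. Chordc1 encodes a co-chaperone of Hsp90 (chr9:18292117-18292296, plus strand), and Hspe1 the mitochondrial co-chaperonin HSP10 (chr1:55087998-55088177, plus strand). The capitals mark runs of adjoining HSE units. The run in Hspe1 is the same stretch as the one in a Hspd1 promoter, where its overlapping matches begin 144 and 139 bases before the start, since the genes of HSP10 and of its partner HSP60 (Hspd1) lie head to head.
Chordc1: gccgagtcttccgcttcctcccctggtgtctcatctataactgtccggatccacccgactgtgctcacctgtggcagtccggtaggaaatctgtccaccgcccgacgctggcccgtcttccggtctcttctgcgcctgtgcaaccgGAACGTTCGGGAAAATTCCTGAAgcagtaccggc
Hspe1: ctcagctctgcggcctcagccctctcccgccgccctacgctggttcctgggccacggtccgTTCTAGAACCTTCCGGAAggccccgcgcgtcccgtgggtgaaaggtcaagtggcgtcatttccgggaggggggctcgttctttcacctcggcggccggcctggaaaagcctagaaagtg
The site in Hsph1, which encodes the Hsp70 exchange factor HSP110, lay 15 or 36 bases after the start, depending on which of 2 RefSeq starts is counted from.
Hsph1: TTCtgGAAagTTC

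**Figure D1:**
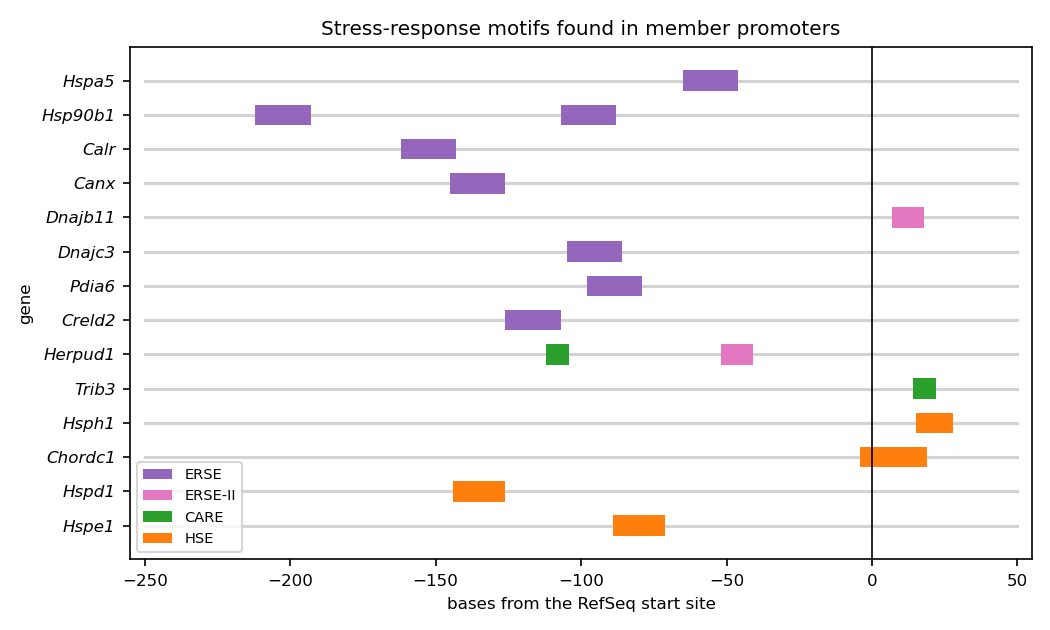
Positions of stress-response motifs in the RefSeq promoters of members, in bases from the start site (x axis), 1 row per gene with at least 1 match, from 250 bases before to 50 bases after the start. ERSE (purple) and ERSE-II (pink) fall in ER members and HSE (orange) in chaperone members; the Hsph1 row uses the RefSeq start nearer to its HSE and the Hspd1 row the RefSeq start that has one.

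The first question was whether the folding machinery responded to the SIK3 guide. No member passed the test. In edgeR's quasi-likelihood test over 14788 genes, with sex as a covariate, 0 of the 36 members were called at an adjusted p of 0.05, against 0.0135% of all genes (2 genes), and the adjusted p of each member rounded to 1. At an unadjusted p under 0.05 there was 1 member, Hspe1, against 2.81% of all genes, and DESeq2 and limma voom also called 0 after adjustment. Which member fell under that unadjusted p varied: it was Xbp1 in place of Hspe1 by DESeq2, and both by limma voom. With 1 mouse left out it was 0 to 5 members, 5 without KO 2 and 4 without control 1, all with negative values. The share of all genes under that p was not computed for these alternatives, so their member counts have no background to be read against. The intervals show what the 8 mice could resolve. For 31 of the 36 members the 95% interval of the fold change lay within 1.5-fold either way, and for 36 within 2-fold. Guide groups overlapped for every member, where 1.74% of all genes had groups that did not overlap.

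**Figure D2:**
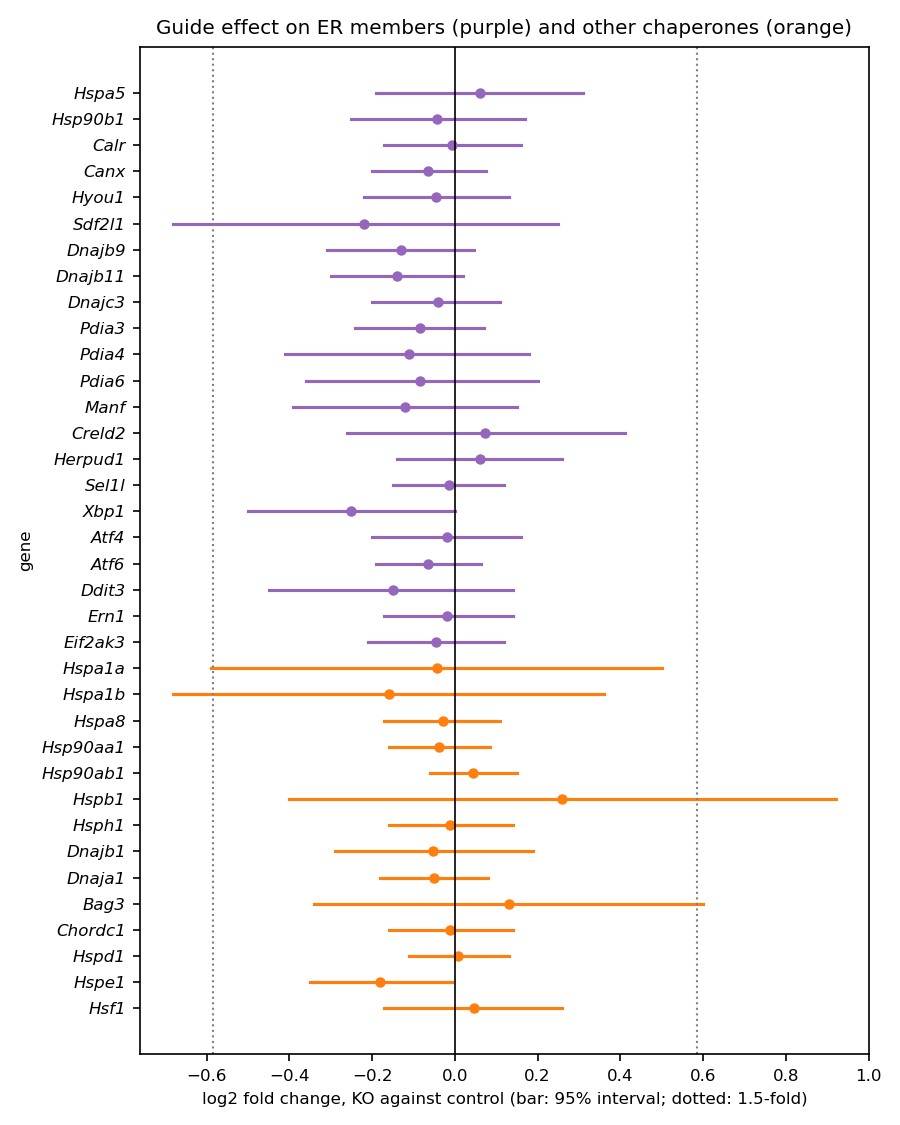
Log2 fold change of each tested member, KO against control (x axis; points are edgeR estimates with sex as a covariate, bars their 95% intervals, dotted lines 1.5-fold either way), for ER members (purple) and other chaperones (orange). All but 1 interval cross 0, that of Hspe1 ending at -0.0067, and the widest belong to the low-count genes Hspb1, Hspa1a, Hspa1b, Sdf2l1 and Bag3.

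Among the ER chaperones, Hspa5 was at 324, 235, 397 and 295 CPM in controls 1 to 4 and at 289, 421, 295 and 292 CPM in KO 1 to 4. Its lowest and highest control span more than the distance between the group means of 313 and 324 CPM. The log2 fold change was 0.061 ± 0.11 (SE, edgeR), with an interval from -12.1% to 23.9%. Hsp90b1 ranged from 488 to 665 CPM in controls and from 503 to 609 CPM in KO mice, and its log2 fold change was -0.042 ± 0.096. The lectin chaperones Calr (calreticulin) and Canx (calnexin), which bind monoglucosylated glycoproteins, gave -0.0057 ± 0.076 and -0.064 ± 0.064. Hyou1, an Hsp70-like exchange factor for BiP, averaged 125 ± 9.55 CPM (control) and 121 ± 14.1 CPM (KO; SD, n = 4 each).

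The ER J-domain cofactors of BiP and the disulfide isomerases lay slightly lower in KO mice, none of them past the test. Dnajb11 was at 58.8, 59.8, 61.1 and 50 CPM in controls 1 to 4 and at 53.2, 59, 50.1 and 46.6 CPM in KO 1 to 4. The groups overlapped widely, with KO 1, KO 2 and KO 3 inside the control range and controls 1 and 4 inside the KO range, and the log2 fold change was -0.14 ± 0.073 (SE; edgeR, unadjusted p = 0.0795). Dnajb9 gave -0.13 ± 0.082 and Dnajc3, also known as an inhibitor of PERK, -0.041 ± 0.071. For the isomerase genes Pdia3, Pdia4 and Pdia6 the values were -0.085 ± 0.071, -0.11 ± 0.14 and -0.083 ± 0.13. Sdf2l1, part of a BiP complex, was low, at 2.54 to 6.13 CPM over all mice, and had the widest interval of the ER members, from -37.7% to 19%. Manf and Creld2, secreted or luminal proteins induced by ER stress, had log2 fold changes of -0.12 ± 0.12 and 0.072 ± 0.15.

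The transcription factor gene Xbp1 had the lowest unadjusted p of the ER members. It was at 58, 56.5, 69.2 and 49.1 CPM in controls and at 44.5, 67.6, 43.2 and 41.8 CPM in KO 1 to 4. In 3 of the 4 KO mice it was below every control, while KO 2 was above 3 of the 4 controls. The log2 fold change was -0.25 ± 0.11 (SE; edgeR, unadjusted p = 0.0508, adjusted p = 1), with an interval from -29.2% to 0.0725%. Of the sensor genes, Ern1 had the smallest coefficient of variation of any tested member over the 8 libraries, 2.75%. It averaged 22.8 ± 0.593 CPM (control) and 22.5 ± 0.705 CPM (KO; SD, n = 4 each). Eif2ak3 gave a log2 fold change of -0.045 ± 0.075 and Atf6 one of -0.064 ± 0.058. Atf4, whose protein is set mostly by translation, averaged 77.6 ± 7.41 CPM (control) and 76.4 ± 8.69 CPM (KO; SD, n = 4 each). Ddit3, which encodes the pro-apoptotic factor CHOP, was at 8.34 to 14 CPM in KO mice and at 12.1 to 12.8 CPM in controls. Of the degradation genes, Herpud1 gave 0.061 ± 0.091 and Sel1l, a scaffold of the ER ubiquitin ligase HRD1, -0.015 ± 0.061.

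The constitutive cytosolic chaperones were the most abundant members per length of transcript. As RPKM, counts scaled to exon length and library size, Hsp90ab1 averaged 600, Hsp90aa1 306 and Hspa8, the constitutive Hsp70 gene, 228, against 137 for Hsp90b1, 108 for Calr and 75.3 for Hspa5. Hsp90ab1 was at 1807, 1701, 1792 and 1780 CPM in controls and at 1803, 1908, 1803 and 1793 CPM in KO mice, and its interval was one of the narrowest, from -3.98% to 10.9%. Hsp90aa1 (-0.039 ± 0.057), Hspa8 (-0.029 ± 0.063), Dnaja1 (-0.051 ± 0.061), Hsph1 (-0.012 ± 0.069) and Chordc1 (-0.012 ± 0.069) also had log2 fold changes within 1 SE of 0. Hsf1 gave 0.046 ± 0.099.

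The inducible heat shock genes were near the floor in every mouse. Hspa1a held 19 to 36 raw counts in controls and 21 to 35 in KO mice, Hspa1b 36 to 59 and 19 to 54, and Hspb1, the small heat shock protein HSP27 gene, 10 to 20 and 10 to 23. Their mean RPKM was 0.565, 0.936 and 0.852. Hspa1a and Hspa1b are near-identical copies, so reads between them may have been split or lost in counting, and 19% of the exon bases of Hspa1a overlap a gene model on the opposite strand. Bag3, an HSF1 target that serves in chaperone-assisted autophagy, ranged from 3.16 to 7.49 CPM in KO mice, wider than the 4.35 to 5.63 CPM of controls, and its log2 fold change was 0.13 ± 0.22. Dnajb1, the classic J-domain partner of inducible Hsp70, averaged 28 ± 2.44 CPM (control) and 27 ± 4.23 CPM (KO; SD, n = 4 each).

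The mitochondrial chaperonin genes share a promoter region, and the difference between their values was not tested. Their 95% intervals on the log2 scale overlapped, -0.11 to 0.13 for Hspd1 and -0.35 to -0.0067 for Hspe1. Hspd1 averaged 228 ± 11.5 CPM (control) and 229 ± 9.16 CPM (KO; SD, n = 4 each), and its log2 fold change was 0.0083 ± 0.055. Hspe1 was at 25.1, 22.4, 27.1 and 24.7 CPM in controls and at 22.6, 22.6, 19.5 and 22.9 CPM in KO mice. Control 2 was below 3 of the KO mice, so the groups overlapped. The log2 fold change of Hspe1 was -0.18 ± 0.08 (SE; edgeR, unadjusted p = 0.0430, adjusted p = 1). Exons of these genes overlap over 112 bases on opposite strands, 7.6% of the exon bases of Hspe1, with the strand setting of the counting not given in the sources used here.

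As lists, the ER members sat slightly below 0 and the chaperone members close to it. Of the 22 ER members tested, 3 had a positive log2 fold change and 19 a negative one, with a median of -0.055, against 51.5% positive and a median of 0.0036 over all genes tested. Of the 14 chaperone members 5 were positive and 9 negative, with a median of -0.020. The count of ER members below 0 changed with the mice included. It was 22 without KO 2, 13 without control 2 and 11 without both KO females, where the ER median was 0.0040. Members vary together from mouse to mouse, so their number is not a number of independent observations.

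Genes of the same pathways outside the membership added no call: edgeR called 0 of them in each of the 5 lists below, against 0.0135% of all genes. Over all genes tested, 51.5% had a positive log2 fold change and 2.81% an unadjusted p under 0.05. Of 29 genes of ER folding and translocation 11 were positive and 18 negative, 0 with an unadjusted p under 0.05. The smallest p values belonged to the translocon subunit gene Sec61g (log2 fold change -0.27 ± 0.13) and the oxidase gene Ero1b (-0.14 ± 0.078) among those lower, and to Ssr2 (0.15 ± 0.10) and the protease gene Mbtps1 (0.086 ± 0.065), which processes ATF6, among those higher. Of 15 further degradation genes 3 were positive and 12 negative, and Derl2, a membrane component of ER-associated degradation, gave -0.17 ± 0.074 (edgeR, unadjusted p = 0.0394), the 1 gene of that list under 0.05. Next to it were the peptidase gene Hm13 (-0.091 ± 0.066) and, on the positive side, the ligase gene Syvn1 (0.073 ± 0.093) and the lectin gene Os9 (0.064 ± 0.095). Among 26 integrated stress response genes 7 were positive and 19 negative, with a median of -0.053. Ddit4, an mTORC1 inhibitor gene, gave -0.30 ± 0.11 (edgeR, unadjusted p = 0.0163), Stc2 -0.23 ± 0.14, and the amino acid transporter gene Slc7a11 0.15 ± 0.077. In that list Eif2ak2, the gene of the RNA-activated eIF2 alpha kinase PKR, was at 9.66, 9.93, 9.5 and 9.88 CPM in controls and at 12, 10.6, 20.8 and 14 CPM in KO mice. Every KO mouse was above every control, and the log2 fold change of 0.55 ± 0.15 did not pass (edgeR, unadjusted p = 0.00367, adjusted p = 1). Eif2ak2 is also an interferon-induced gene, and the summed level of 19 interferon-stimulated genes was 137 to 151 CPM in controls and 160, 164, 296 and 183 CPM in KO 1 to 4. Their part in its value was not tested. The 35 mostly cytosolic chaperone, co-chaperone and chaperonin genes, a list that also holds the factor gene Hsf2, had a median of -0.00093, 17 positive and 18 negative. The chaperone-linked ubiquitin ligase gene Stub1 was at 0.38 ± 0.17 (edgeR, unadjusted p = 0.0483), Dnajb2 at 0.28 ± 0.16, Dnajb4 at -0.10 ± 0.062 and Dnajb6 at -0.074 ± 0.057. The 10 mitochondrial genes had a median of 0.0076, 5 in each direction, with the proteases Lonp1 at 0.10 ± 0.088 and Htra2 at 0.15 ± 0.14 and, below 0, Timm17a at -0.096 ± 0.069 and Yme1l1 at -0.031 ± 0.074.

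The second question was how the members varied between mice whatever the guide. KO 2, a male, was the highest of the 8 libraries for 10 of the 22 ER members and the lowest for 0. In the other direction KO 4, a female, was the lowest for 6 and the highest for 0. Averaged over the ER members, log2 CPM relative to the control mean came to -0.0066, 0.035, 0.089 and -0.12 in controls 1 to 4 and -0.14, 0.18, -0.17 and -0.15 in KO 1 to 4. The KO mice thus held both the highest value and the 3 lowest. KO 4 also held the most immunoglobulin and plasma cell transcripts, 2052 raw counts over 7 genes against 218 to 363 in each other library, and no ER member was highest there. Over the 2 of these genes that passed the filter it held 35 CPM, against 13 to 20 CPM. Immediate early genes followed another order, at 552 and 596 CPM in KO 2 and KO 4 and 346 and 340 CPM in KO 1 and KO 3 over 15 genes.

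**Figure D3:**
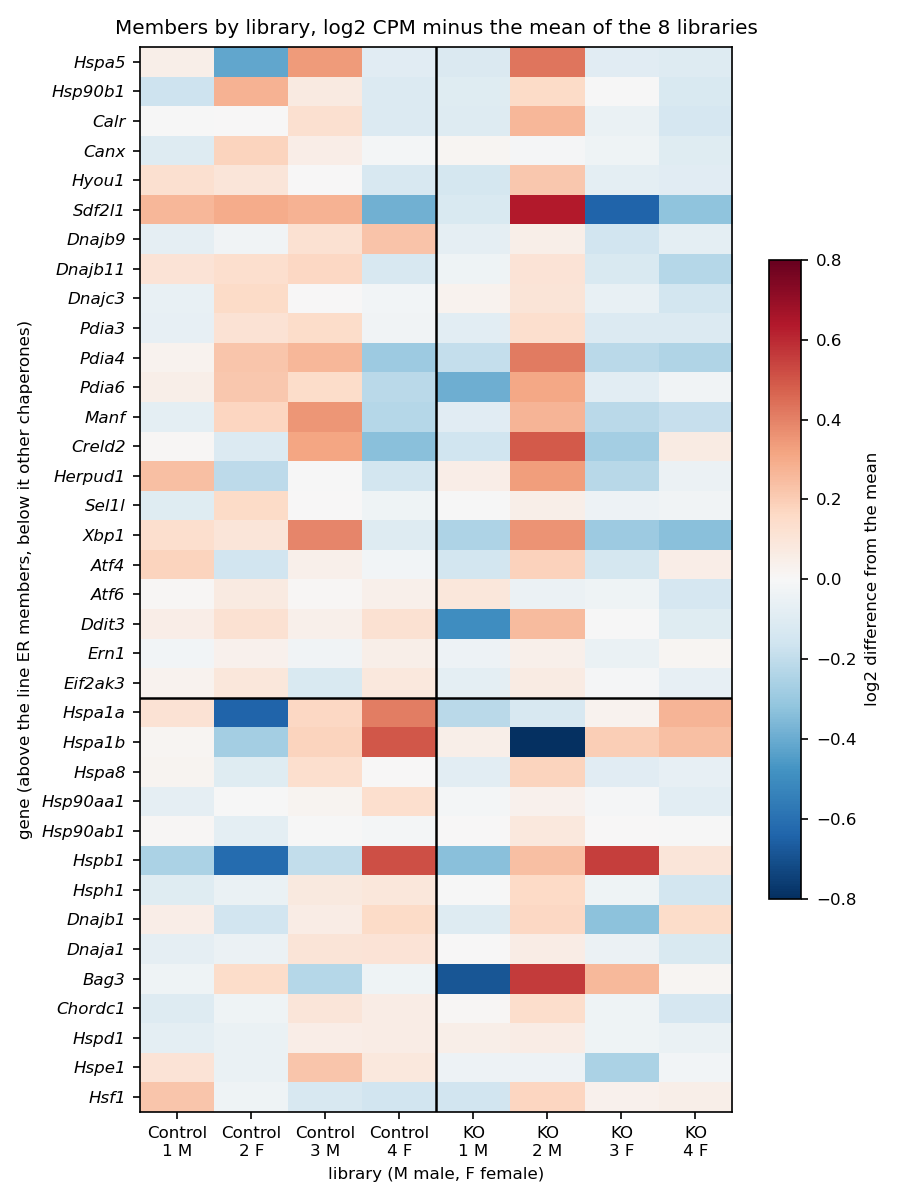
Log2 CPM of each tested member minus its mean over the 8 libraries (colour, scale at right), genes in rows and libraries in columns, with the control and KO libraries divided by the vertical line and ER members and other chaperones by the horizontal line. KO 2 is red for most ER members and control 3 for many, while KO 3 and KO 4 are mostly blue; for Hspa1b KO 2 is the lowest library.

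Correlations across the 8 libraries were computed for 34 pairs, Hspa5 with 21 other ER members and Hsph1 with 13 other chaperone members, on log2 CPM with exact two-sided permutation p adjusted over the 34. The cytosolic group held the closest pairs. Hsph1 and Chordc1 gave r = 0.98 (exact permutation p = 7.44e-05, adjusted p = 0.00253) and rho = 0.98 (exact permutation p = 0.000397, adjusted p = 0.0135), and Chordc1 ranked 1 among all other tested genes by its r with Hsph1. Hsph1 was at 450, 463, 506 and 512 CPM in controls and at 480, 537, 469 and 434 CPM in KO mice, and Chordc1 at 97.5, 102, 112 and 109 CPM and at 105, 115, 102 and 95.2 CPM. Both genes were highest in KO 2 and lowest in KO 4. Dnaja1 gave r = 0.91 (exact permutation p = 0.00241, adjusted p = 0.0409) and rho = 0.93 (exact permutation p = 0.00223, adjusted p = 0.0253) with Hsph1 and ranked 15. Hspd1 gave r = 0.88 (exact permutation p = 0.00439, adjusted p = 0.0498) and rho = 0.95 (exact permutation p = 0.00114, adjusted p = 0.0194). Without KO 2 and KO 4, the libraries farthest from the median of Hsph1, r was 0.96 for Chordc1, 0.99 for Dnaja1 and 0.92 for Hspd1. As deviations from the mean of each guide and sex it was 0.97, 0.93 and 0.82, but with 2 mice in each those deviations are mirrored pairs, fewer independent values than 8. As deviations from the guide means alone it was 0.98, 0.94 and 0.89. None of the 3 relations passed when those deviations were permuted within guide groups (exact permutation, adjusted p = 0.059 for each). Before adjustment the p values were 0.00347 for Chordc1, 0.00521 for Dnaja1 and 0.00347 for Hspd1 (exact permutation within guide groups). Permutation within groups of 4 has few arrangements, and 1 pair alone at the smallest possible p could not pass over the 34. Several pairs at that p could have passed, so the few arrangements did not by themselves fix this outcome. Not passing does not show that the relations are absent within guide groups.

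Over the 8 libraries, other chaperones did not follow Hsph1 as closely. Hsp90aa1 gave r = 0.80 (exact permutation p = 0.0141, adjusted p = 0.120) and rho = 0.88 (exact permutation p = 0.00724, adjusted p = 0.0616). Its r was 0.85 without KO 2 and KO 4 and 0.83 as deviations from the guide means. As deviations from the mean of each guide and sex it was 0.93, as high as for Dnaja1 and above Hspd1. An r of 0.7 or more was reached by 5 of the 13, against 3.48% of all tested genes. For the low-count genes Hspa1a, Hspa1b, Hspb1 and Bag3 r ran from -0.37 to 0.31, and for Hsf1 it was -0.23. Of the 3 genes with adjusted p under 0.05, Chordc1 and Hspd1 carry the heat shock element shown above, as Hsph1 does, and Dnaja1 had no match in its RefSeq windows. Hspe1, which shares its element with Hspd1, gave r = 0.23.

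**Figure D4:**
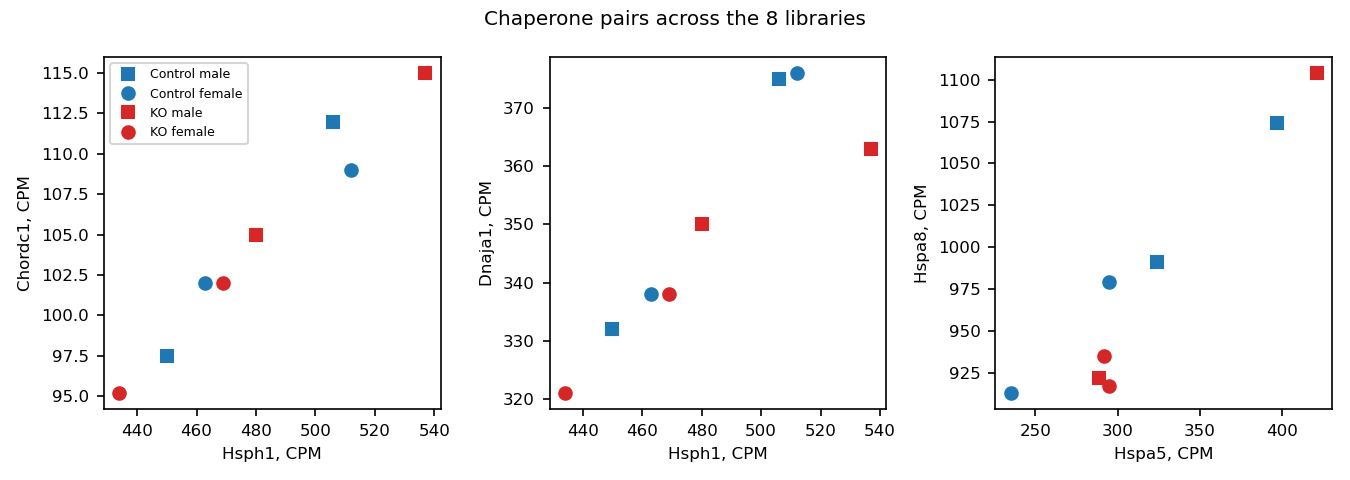
Levels in CPM of Hsph1 against Chordc1, Hsph1 against Dnaja1 and Hspa5 against Hspa8 in the 8 libraries (blue control, red KO, squares males, circles females). In the left panel the libraries lie close to a line from KO 4 at 434 and 95.2 CPM to KO 2 at 537 and 115 CPM, with both guides spread along it.

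For Hspa5 and the other ER members, r was positive with 14 of the 21, with a median of 0.38 against 0.0264 over all tested genes, and 0 passed after adjustment. An r of 0.7 or more was reached by 4 of the 21, against 4.37% of all genes. As deviations from the mean of each guide and sex, again mirrored pairs of 2 mice, 18 of the 21 were positive, with a median of 0.39. The closest were Creld2 at r = 0.79 (exact permutation p = 0.0217, adjusted p = 0.147) with rho = 0.52 (exact permutation p = 0.197, adjusted p = 0.608), and Calr at r = 0.76 (exact permutation p = 0.0334, adjusted p = 0.184) with rho = 0.52. The relations of both rest on control 3 and KO 2. Without those libraries the r of Creld2 was 0.067, that of Calr -0.26 and the median over the 21 was -0.34, while Herpud1 went from 0.71 to 0.64 and Atf4 from 0.72 to 0.67. Against the 14 chaperone members, a family of pairs computed after the data were seen, Hspa5 was closest to Hspa8, at r = 0.93 (exact permutation p = 0.000149, adjusted p = 0.00208 over 14) and rho = 0.93 (exact permutation p = 0.00223, adjusted p = 0.0312). Hspa8 was at 991, 913, 1074 and 979 CPM in controls and 922, 1104, 917 and 935 CPM in KO mice. Without control 3 and KO 2 its r with Hspa5 was 0.67, and 0.115% of all tested genes had an r with Hspa5 as high as 0.93.

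The third question was whether the members differed between the sexes, the other labelled factor. No member passed for sex in edgeR, where 0.0609% of all genes did (9 genes), and the smallest adjusted p of a member was 0.739, for Herpud1. DESeq2 also called 0. At an unadjusted p under 0.05, 6 of the 22 ER members were lower in females and 0 higher, against 2.81% of all genes lower and 3.25% higher. They were Hspa5, Herpud1, Xbp1, Creld2, Sdf2l1 and Dnajb11. Among the 14 chaperone members there were 0 in either direction. Over the list, 16 of the 22 ER members were negative, with a median of -0.084, and 9 of the 14 chaperone members, with a median of -0.048, against 47.9% positive over all genes.

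Herpud1 was at 26, 22, 22.8 and 27.7 CPM in the males (controls 1 and 3, KO 1 and KO 2) and at 19, 19.9, 18.9 and 21.3 CPM in the females. It was the 1 ER member whose sexes did not overlap, with females lower, as for 2.52% of all genes. Its log2 difference, female minus male, was -0.32 ± 0.091 (SE; edgeR, unadjusted p = 0.00473). Hspa5 was at 358 ± 62 CPM in males and 279 ± 29.5 CPM in females (SD, n = 4 each), a difference of -0.36 ± 0.11 (edgeR, unadjusted p = 0.00842, adjusted p = 0.748). The sexes overlapped for Hspa5, since KO 1, a male, was below 3 of the 4 females. Xbp1 differed by -0.33 ± 0.11, Creld2 by -0.34 ± 0.15, Sdf2l1 by -0.51 ± 0.21 and Dnajb11 by -0.17 ± 0.073.

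**Figure D5:**
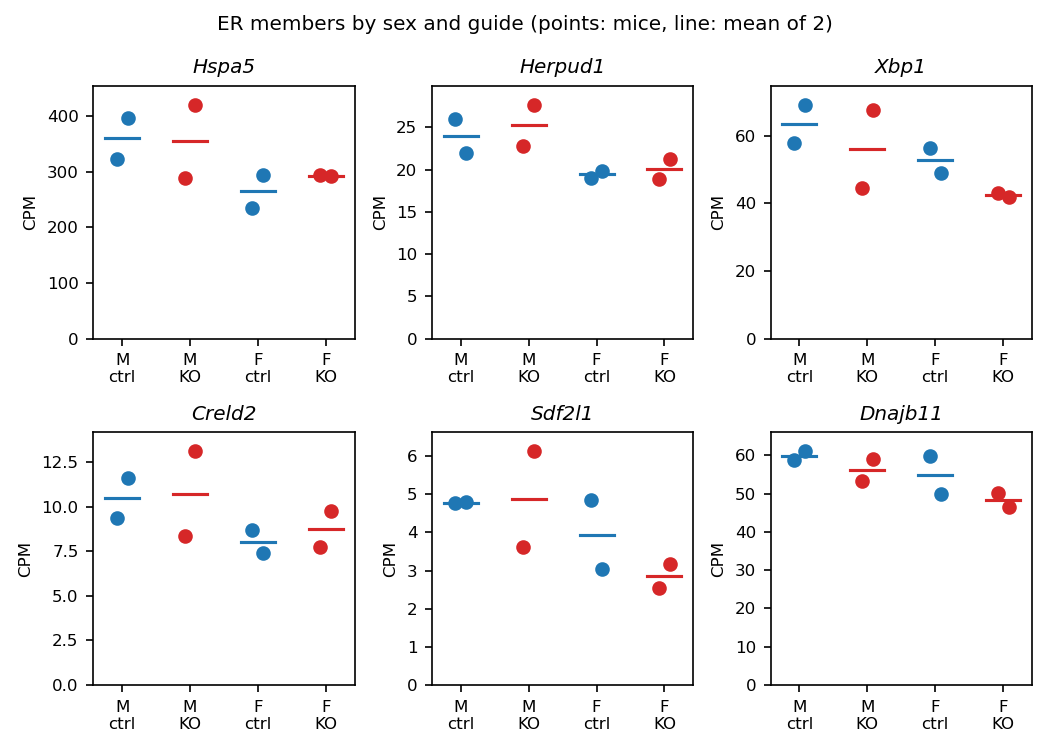
CPM (y axis from 0) of the 6 ER members with an unadjusted p under 0.05 for sex, by sex and guide (points are mice, lines the mean of 2). Herpud1 is lower in every female than in every male; for Hspa5 and Xbp1 the male values reach highest in control 3 and KO 2.

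The count of 6 depended on which mice were included, males and females alike. The share of all genes lower in females at that p, given in brackets, changed as well. Of the males, the count was 2 without KO 2 (1.83%), 3 without control 3 (1.18%) and 1 (Herpud1) without both (0.998%). Without both, Herpud1 had a difference of -0.29 (edgeR, unadjusted p = 0.0254) and Hspa5 one of -0.13. Leaving out KO 1, also a male, raised the count to 11 (4.37%), and leaving out control 1 raised it to 9 (4.37%). Of the females, leaving out control 4 (3.08%) or KO 3 (1.69%) lowered it to 3 and leaving out KO 4 to 4 (2.26%). Without control 2 it was 7 (1.56%). Hspa5 (adjusted p = 2.14e-05) and Xbp1 (adjusted p = 0.0149) were called for sex by edgeR when no filter on low counts was used, with 112 calls among 24147 genes. The Hspa5 difference itself hardly changed, -0.35 there against -0.36 with the filter. Calls rose for the guide in that setting as well, from 2 to 84 genes, so its small p values are not particular to these members. Males had 13561662 to 15165413 counts and females 16743701 to 18619928, so sex and depth cannot be told apart here. Of the ER members with an ERSE or ERSE-II, 9 were tested for sex and their median difference was -0.15, from -0.36 to 0.021. The 10 matched without one had a median of -0.039, from -0.51 to 0.052, so the ranges overlapped. For the guide the medians of the same sets lay in the other order, -0.041 with an ERSE or ERSE-II and -0.098 without. Those ranges overlapped too, -0.14 to 0.072 and -0.25 to -0.015.

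The last question was whether the guide acted differently in the sexes. Within females, 18 of the 22 ER members had a negative log2 fold change and the median was -0.15, against 51.2% positive over all genes. Within males 11 were negative and 11 positive, with a median of 0.0039, against 48.6% positive. The difference itself did not pass for any member (edgeR interaction, adjusted p of at least 0.765, against 0% of all genes called). DESeq2 called 0 members for the difference. At an unadjusted p under 0.05 in edgeR there was 1, Dnajc3, against 5.42% of all genes, with log2 fold changes of -0.17 ± 0.086 in females and 0.094 ± 0.087 in males (edgeR interaction, unadjusted p = 0.0490). The chaperone members had medians of -0.040 in females and 0.024 in males. Within females edgeR called 0 members, against 0.0406% of all genes, and 0 had an unadjusted p under 0.05, against 7.11%. Within males it also called 0, against 0% of all genes, and 0 had an unadjusted p under 0.05, against 1.83%. DESeq2 called 0 members in both.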

How the data were processed

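The authors deposited raw read counts per Ensembl gene, 1 file per mouse, with 37315 identifiers. Per the submitters' processing notes the build was mm10, and the tools named, with no role or order, were HTSeq 2.0.1, Trimmomatic 0.33 and TopHat2 2.1.1. The kit was TruSeq stranded mRNA, per the labels' protocols. Strand setting and annotation: not given in the sources used here. Reads of overlapping genes and of near-identical copies or processed pseudogenes of chaperone genes may be split or lost.

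The test was run in R 4.3.3 with edgeR 4.0.16 (filterByExpr with minimum count 10 and minimum total 15, TMM, quasi-likelihood F test, sex as a covariate, 5 residual degrees of freedom), with Benjamini-Hochberg adjustment over 14788 genes and calls at 0.05. SE is the log2 fold change divided by the square root of F. Interaction and within-sex contrasts came from a fit of 4 groups with 2 mice each. CPM used TMM library sizes, log2 CPM a prior count of 2, and exon lengths GENCODE M21 on GRCm38. DESeq2 1.42.0, limma 3.58.1 voom, scalings, filters, covariates and left-out libraries were alternatives. The scripts were tested on simulated data. Members and lists were chosen with earlier results of these data known. Every tested member has values here, and of each pathway list the 2 genes with the smallest p in each direction are named. Libraries are numbered in listing order, which pairs no animals.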

Additional observations from a re-analysis of the deposited data

Results flagged for a closer look

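In 8 of the 72 member groups of 4 mice, 1 mouse lay apart from the other 3 by more than Dixon's 95% critical value for 4 samples allows, where chance gives about 1 in 20 groups. Of these, 6 were KO 2, a male, above the other KO mice: Hspa5 at 421 CPM, Pdia3 at 259 CPM, Pdia4 at 61.4 CPM, Xbp1 at 67.6 CPM, Hspa8 at 1104 CPM and Hsp90ab1 at 1908 CPM. These members share that library, so they are not separate events. The others were Sdf2l1 in control 4, at 3.03 CPM below the other controls, and Hspe1 in KO 3, at 19.5 CPM below the other KO mice. KO 2 also had the lowest summed oligodendrocyte markers, 2802 CPM, and its part in the values was not tested.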

How the results depend on the processing

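Of 719 values of single members under 20 alternatives, 713 stayed within 1 SD between replicates of the value given, 6 moved by more, all without both KO females, and 0 passed the adjusted p. That SD is wide beside fold changes this small, so a value within it could change sign. The sign differed for 15 of the 36 members without both KO females, 9 without control 2 and 8 without KO 1, and for 0 by DESeq2. The member count for the guide was 0 in each alternative run. The ER median ran from -0.11 to -0.014 and the chaperone median from -0.065 to 0.022 when 1 mouse was left out. The count of all genes called for the guide, 2, was 84 with no filter, 1 with dentate markers as a covariate, 0 without both KO females, 0 without control 3 and KO 2, and 0 to 2 with 1 mouse left out. For the interaction, 0 became 100 with no filter and 2 by DESeq2, and 0 to 1 with 1 mouse left out. Within females, 6 became 275 with no filter, 18 by DESeq2 and 0 to 21 with 1 mouse left out. Within males, 0 became 20 with no filter, 3 by DESeq2 and 0 to 1 with 1 mouse left out. None of these calls within a sex, or for the interaction, was a member. For sex, 9 calls became 112 with no filter, 18 by DESeq2, 42 when the GC slope was a covariate, and 3 without control 3 and KO 2, and the members called were 0, apart from 2 with no filter. The ER members lower in females at an unadjusted p under 0.05 in edgeR were 6, against 2.81% of all genes lower. They were 9 with no filter (against 1.8% of all genes), 9 under the GC slope (6.31%) and 1 without control 3 and KO 2 (0.998%). With 1 mouse left out they were 2 to 11, against 1.18% to 4.37% of all genes. Of the Hsph1 correlations 3 passed, and 0 as deviations from the guide mean, where permutation within groups gives adjusted p of 0.059 for the 4 closest. The few arrangements within groups of 4 limit how small an unadjusted p can be, but did not by themselves fix this outcome. Leaving out control 3 and KO 2 together, the GC slope for sex and the pairs of Hspa5 with chaperones were chosen after seeing the data. Except where named, the cause of a change was not tested. No paired analysis was possible because the labels give the mice no shared numbers. Counts of about 10 to 60 per mouse limit Hspa1a, Hspa1b and Hspb1.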

Other observations

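Among the same 35 mostly cytosolic chaperone, co-chaperone and chaperonin genes outside the membership, 11 were higher and 24 lower in females by sign. Their median log2 difference, female minus male, was -0.065. In edgeR 0 passed the adjusted p. At an unadjusted p under 0.05, 5 were lower and 0 higher, against 2.81% and 3.25% of all genes. The 5, named after their values were seen, were the small heat shock protein gene Hspb8 and the chaperonin subunit genes Cct3 (-0.14 ± 0.053), Cct5 (-0.15 ± 0.051), Cct6a (-0.16 ± 0.062) and Cct7 (-0.13 ± 0.058). The other 4 subunit genes of that chaperonin in the list did not reach it, at -0.085 ± 0.058 for Tcp1, -0.094 ± 0.052 for Cct2, -0.095 ± 0.072 for Cct4 and -0.083 ± 0.061 for Cct8, and the complex was not tested as a list. Left-out libraries and other scalings were not run for these genes.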
